A study of Rattus norvegicus with 7 samples.

Results

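The resting transcript profile of ROE2 cells was read from 4 vehicle arrays, at 0, 3, 6 and 12 h, out of 7 arrays in the series. ROE2 is an immortalized oral epithelial line from the tongue of an 18-day-old fetus of a Wistar rat carrying a temperature-sensitive SV40 large T-antigen transgene, which all arrays share. The cells had been maintained at the permissive 33 °C with insulin, transferrin and epidermal growth factor, and were then held for 24 h at 37 °C in medium with 2% serum before sterilized water (1% by volume) was added as vehicle. Each array carried 1 pool of RNA from 3 independent experiments, so the ± values below are SDs over 4 arrays that mix time and technical spread. The 3 arrays of cells given NaF, sodium fluoride, were not analysed here, and no test between groups was made.

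For every gene with a named probe set, the level is the mean log2 signal over the 4 vehicle arrays at the gene's brightest probe set. Of 31099 probe sets, 20832 carried 1 current gene symbol, and these covered 14218 genes. A microarray signal depends on how well the probes bind as well as on how much transcript is there. The gap between the brightest and the dimmest probe set of the same gene had a median of 2.05 log2 units over the 4526 genes with more than 1, so smaller differences between genes lie within what the choice of probe set alone spans.

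Stratified oral epithelium renews from a basal layer of dividing cells that sit on a basement membrane. Basal cells build their cytoskeleton from the keratin pair Krt5 and Krt14, hold to the membrane through hemidesmosomes and to each other through desmosomes, and depend on the transcription factor Tp63. Cells that leave the layer switch to other keratins, Krt4 and Krt13 in soft mucosa and Krt1 and Krt10 in keratinized surfaces, and make the cross-linked envelope proteins of the barrier. Keratins work as pairs of 1 acidic and 1 basic protein, and most acidic genes lie in a cluster on chromosome 10 and the basic genes in a cluster on chromosome 7, where the acidic Krt18 lies as well.

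The 50 bases before the annotated start are shown for keratin genes at both ends of the signal ranking and for bright barrier and chemokine genes, since they differ in a short A and T run near the start. The sequences are RefSeq's, assembly GRCr8, written 5′ to 3′ on the gene's strand, with ATAAA in capitals where it occurs. They lie at chr7:134730570-134730619 on the minus strand for Krt5, chr7:134682754-134682803 (minus) for Krt6c, chr7:135010340-135010389 (minus) for Krt8, chr7:135036118-135036167 (plus) for Krt18, chr2:180752626-180752675 (minus) for Sprr1a, chr1:95165812-95165861 (plus) for Krtdap and chr14:17479322-17479371 (minus) for Cxcl1.
Krt5: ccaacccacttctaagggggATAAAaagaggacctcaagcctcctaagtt
Krt6c: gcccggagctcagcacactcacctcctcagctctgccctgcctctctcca
Krt8: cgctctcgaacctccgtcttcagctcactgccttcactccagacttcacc
Krt18: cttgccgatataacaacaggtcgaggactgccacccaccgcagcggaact
Sprr1a: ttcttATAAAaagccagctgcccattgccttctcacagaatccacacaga
Krtdap: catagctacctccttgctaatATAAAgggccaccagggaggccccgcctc
Cxcl1: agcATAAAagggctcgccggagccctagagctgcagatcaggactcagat
The same window was searched on the gene's strand in every promoter of the table for TATAAA, the core of the TATA box, and for ATAAA, which every TATAAA also holds. Among 24206 promoters, 6.58% held the shorter run and 2.64% held TATAAA. Of the runs marked above, those of Sprr1a and Krtdap are part of TATAAA and those of Krt5 and Cxcl1 are not. The longer motif stood in 12.7% of the 79 promoters found for the 100 brightest genes, in 1.35% of 6372 promoters of genes above the background limit described below and in 4.68% of 4574 promoters of genes at or below it. The share was 33.3% among keratins (5 of 15, which do not include Krt14, Krt17, Krt15, Krt13 and Krt19), 14.3% among cytokines and chemokines above the limit (2 of 14), 37.5% among squamous differentiation genes above the limit (6 of 16) and 30.5% among genes of distant tissues (18 of 59), whereas none of the 20 citric acid cycle promoters and none of the 24 proliferation promoters held it. The shorter run stood in 15.2% of promoters of the 100 brightest genes, 2.81% above the limit and 8.61% at or below it. Its share was 46.7% among the keratins, 35.7% among the cytokines and chemokines, 43.75% among the squamous genes and 40.7% among genes of distant tissues. Median GC content over the 250 bases before the start was 48.8% for keratins, 60.8% for genes above the limit and 56.8% for the others.

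Gene levels ran from 1.95 to 14.18 log2 units and fell into a low and a high hump. The fullest band of 0.25 units in the low hump, from 3 to 3.25, held 468 genes, the fullest in the high hump, from 8.25 to 8.5, held 522, and the emptiest band between them, from 5.75 to 6, held 262. As a background limit, the 95th percentile of the level over 81 genes known from distant tissues such as liver, pancreas, retina and testis was taken, which was 6.58. Of all 14218 genes, 7919 (55.7%) were above this limit, 7744 of them on each of the 4 arrays, and 1248 lay within 0.5 units of it on either side. Tor4a (6.58 ± 0.13), Shf (6.58 ± 0.20) and E2f7 (6.58 ± 0.18) were the nearest above, and Ins1 (6.58 ± 0.12), the list member whose level sets the limit, Farp2 (6.58 ± 0.06) and Zgpat (6.58 ± 0.25) the nearest at or below, so the 2 sides do not differ there beyond the spread between arrays. The array's own hybridization controls, bacterial and phage transcripts added in rising amounts, read 7.90 (bioB), 9.37 (bioC), 11.15 (bioD) and 13.11 (cre), and 5788, 2871, 708 and 62 genes respectively were above them. The array's Bacillus subtilis controls, 27 probe sets, averaged 2.47.

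**Figure D1:**
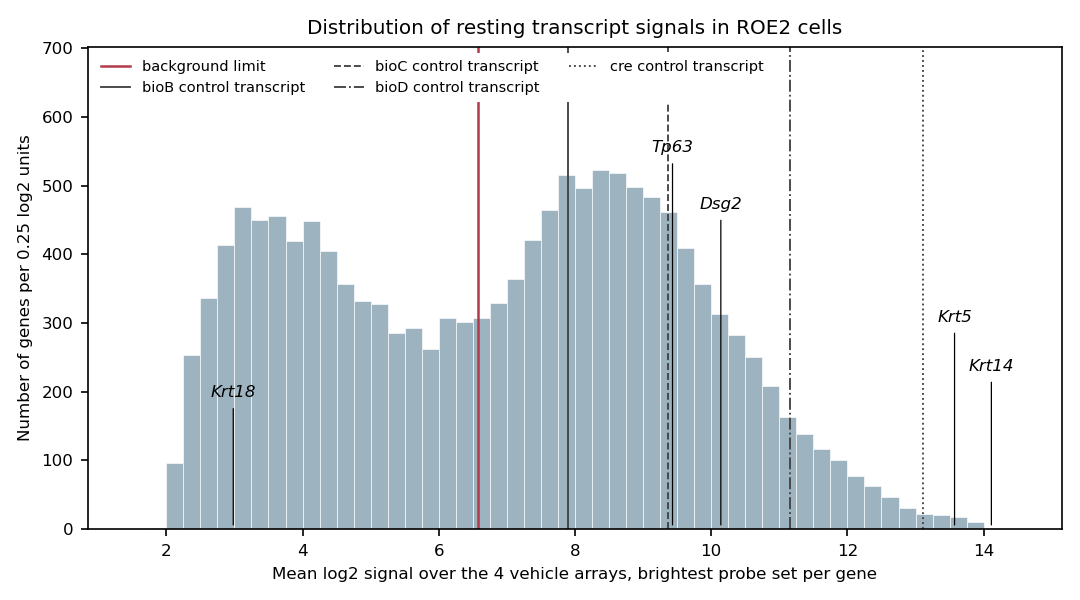
Number of genes per 0.25 log2 units of mean signal over the 4 vehicle arrays, at the brightest probe set of each of 14218 genes. The red line is the background limit of 6.58 and the black lines are the mean signals of the bioB, bioC, bioD and cre control transcripts. Krt5 (13.57) and Krt14 (14.11) lie beyond the cre control, Tp63 (9.43) and Dsg2 (10.14) in the high hump, and Krt18 (2.98) in the low hump.

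The 4 arrays ranked genes almost alike. Pearson's r between pairs of arrays, over all probe sets, was 0.996 to 0.999, a description over probe sets of libraries from the same cells. The median SD over arrays was 0.074 log2 units for genes above the limit, 0.126 for those at or below it and 0.027 for the 100 brightest, and 96 to 97 of these 100 were also among the 100 brightest of each single array. Signal of the beta-actin control was higher at its 3′ than at its 5′ end by 1.98, 2.83, 1.53 and 1.54 log2 units at 0, 3, 6 and 12 h, and that of GAPDH by 0.29, 0.51, 0.20 and 0.18, with the highest value of each on the 3 h array. The part of this difference in the spread of single genes was not tested. In the deposited values, 3208 genes (22.6%) carried the same value, to 5 decimals, on 2 or more arrays, and 43 of them on all 4, so an SD can be smaller than the spread between independent measurements.

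Actg1, the non-muscle gamma actin, gave the highest signal of all named genes at 14.18 ± 0.02, followed by Krt14 at 14.11 ± 0.02. The next were the ribosomal protein gene Rps29 (13.96 ± 0.01), the elongation factor Eef1a1 (13.92 ± 0.05), Rpl27a (13.90 ± 0.01), the mitochondrially encoded oxidase subunit COX2 (13.88 ± 0.11) and the activation keratin Krt6c (13.87 ± 0.02). The 25 brightest genes fell largely into translation and cytoskeleton. Ribosomal protein genes made up 12 of them, with Rpl19, Rps23, Rplp0, Rpl23, Rps3a, Rpl26, Rpl41, Rpl6, Rpl7a and Rps24 between 13.87 and 13.59 after the pair already named. Of the actin-binding, annexin and S100 group, S100a11 (13.85), the membrane-binding annexins Anxa2 (13.83) and Anxa1 (13.62), the actin monomer-binding Tmsb4x (13.75) and S100a6 (13.60) stood among them. The remaining 3 were COX1 (13.76), the thioredoxin Txn1 (13.68) and Gpr15lg (13.59), which encodes a secreted ligand of the receptor GPR15 that is known from squamous epithelia. Among the 25 pairs of neighbours from rank 1 downwards, 4 were in the same order on all 4 arrays, so most single ranks at the top do not differ beyond the spread between arrays.

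The 100 brightest genes were dominated by a few families. Cytosolic ribosomal proteins numbered 38 of 42 measured in their list, whose median was 13.35. Glycolysis gave 5, Ldha, Gapdh, Aldoa, Pgk1 and Pgam1, and the cytoskeleton, annexin and S100 list gave 8. Epithelial structure was represented by the keratins Krt14, Krt6c, Krt5 and Krt17, the adherens junction catenins Ctnnb1 and Ctnna1, the connexin Gja1, the laminin chain Lamb3 and the cornified envelope protein Sprr1a. The monocyte chemokine Ccl2 was the only member of the 47 cytokine and chemokine genes measured that stood among them.

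The markers named for oral epithelium were all above the limit on every array. Krt14 read 14.12, 14.10, 14.10 and 14.14 and Krt5 read 13.60, 13.55, 13.55 and 13.58 at 0, 3, 6 and 12 h, both at the top of the scale with little spread. Tp63 read 9.22, 9.34, 9.53 and 9.64 (9.43 ± 0.19), rank 2756, and the desmosomal cadherin Dsg2 read 10.00, 10.17, 10.13 and 10.27 (10.14 ± 0.11), rank 1671. The second Tp63 probe set averaged 4.44, under the limit, so the Tp63 call rests on 1 of its 2 probe sets.

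Keratins were sharply divided. Of 23 listed keratins measured, 9 were above the limit (39.1%, against 55.7% of all genes) and the median was 5.72, but 3 of them were in the top 28 of 14218 genes. Besides Krt14 and Krt5, the activation keratin Krt17, which appears in wounded and cultured epithelium, read 13.52, 13.54, 13.51 and 13.56. Krt6c, its basic partner type, was outside the lists because Krt6a now names another gene ID, and read 13.88, 13.86, 13.90 and 13.86. The ranges of Krt5 and Krt17 overlapped, while Krt14 and Krt6c were above both on every array. The 13.87 of Krt6c comes from a probe set that can bind related transcripts, and its other 2 probe sets averaged 11.57 and 11.75.

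A middle group followed well below these. Krt8, a keratin of simple epithelia, read 9.83, 9.90, 9.81 and 9.81, whereas its usual partner Krt18 read 3.19, 2.91, 2.92 and 2.92, in the low hump and far under the limit on all arrays. Krt19, another acidic partner of Krt8, was as low at 3.15, 3.01, 3.03 and 3.04. Each of these 3 genes had 1 named probe set, so no second reading of the Krt8 and Krt18 difference was had. Krt13, the acidic mucosal keratin, read 9.05, 9.04, 9.54 and 9.96, and its partner Krt4 read 3.75, 3.54, 3.67 and 3.58. The keratinized-surface pair was low, with Krt10 at 6.87 ± 0.09, just above the limit, and Krt1 at 3.40 ± 0.10, below it. Krt12, best known from cornea, was at 7.80 ± 0.07, the basal keratin Krt15 at 7.32 ± 0.44 and the glandular keratin Krt7 at 7.16 ± 0.18.

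All other keratins measured were under the limit. Krt33b (5.85), Krt86 (5.75), Krt71 (5.72), Krt78 (5.62), Krt79 (5.49), Krt20 (5.47) and Krt90 (5.04), which the lists did not hold, lay between 5 and the limit, and Krt36 (4.46), Krt23 (4.36), Krt25 (3.71) and Krt24 (3.62) lower still. By cluster, 6 of 13 measured keratins of chromosome 10 and 4 of 12 of chromosome 7 were above the limit, and each cluster held genes both near the top and near the bottom of the scale.

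**Figure D2:**
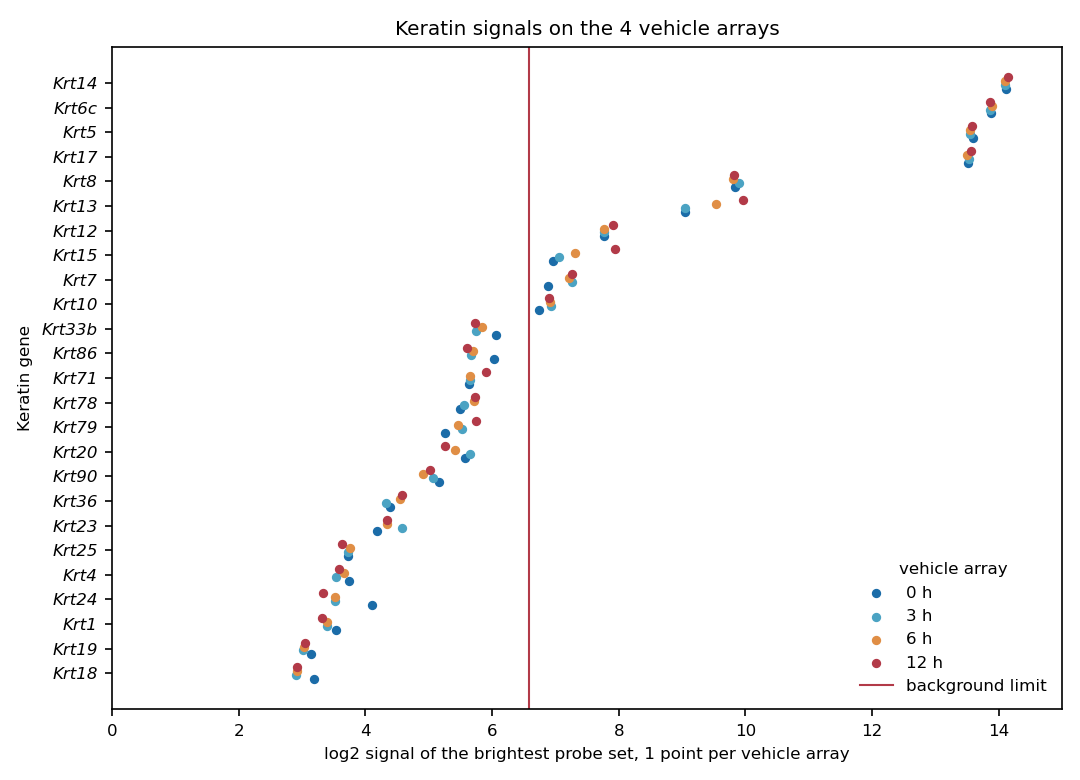
Keratin genes measured, ordered by mean, with the log2 signal of each of the 4 vehicle arrays as a point and the background limit of 6.58 as a line. Krt14, Krt6c, Krt5 and Krt17 stand apart above 13.5, Krt13 and Krt15 spread over 0.92 and 0.97 units with the 12 h array highest, and Krt18 is lowest at 2.98.

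Junction genes as a class had a median of 7.97, and 50 of 88 measured (56.8%) were above the limit, close to the share of all genes. The hemidesmosome list was bright throughout. This junction anchors basal cells to the basement membrane. All 8 members measured were above the limit, with a median of 12.09. Its laminin chain Lamb3 was at 12.77 ± 0.06, the integrin pair Itgb4 and Itga6 at 12.33 ± 0.02 and 12.01 ± 0.08, the tetraspanin Cd151 at 12.18, the linker Dst at 12.10 ± 0.06, the transmembrane collagen Col17a1 at 12.07 ± 0.02, the laminin chain Lama3 at 11.34 ± 0.11 and the plakin Plec at 10.17 ± 0.03.

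Desmosomes, the spot junctions that tie keratin filaments of neighbouring cells, had 10 of 11 members above the limit (90.9%, against 55.7% of all genes). Of the plaque proteins, the plakophilin Pkp1 was at 12.65 ± 0.03, desmoplakin Dsp at 12.58 ± 0.08, plakoglobin Jup at 12.31 ± 0.06 and Pkp3 at 11.23 ± 0.02, and the membrane protein Perp was at 12.33 ± 0.03. Of the cadherins, Dsc2 was at 10.60 ± 0.09, Dsg2 at 10.14 and Dsg1, a cadherin of upper layers, at 7.97. Pkp2 and Pkp4 were at 8.62 and 7.85. The exception was Dsc1, a desmocollin of the uppermost layers, at 4.27. The cadherins Dsg3, Dsg4 and Dsc3 had no named probe set. Adherens junctions had 11 of 13 above the limit, led by the catenins Ctnnb1 (13.01) and Ctnna1 (12.93), E-cadherin Cdh1 (12.13 ± 0.02), Vcl (11.06), Afdn (10.98) and P-cadherin Cdh3 (10.63 ± 0.03). The nectins Nectin3, Nectin1, Nectin2 and Nectin4 were between 9.51 and 7.86 and Ctnnd1 at 8.40, while N-cadherin Cdh2 at 4.15 and the neural catenin Ctnna2 at 3.88 were the members below.

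The tight junction and connexin lists held members on both sides of the limit. Their shares above it, 44% and 45.5%, were not far from the 55.7% of all genes. Of 25 tight junction genes, 11 were above the limit, among them the claudin Cldn4 (11.80), the scaffold Tjp1 (11.66), the adhesion molecule F11r (10.99) and occludin Ocln (9.91). Among 11 connexin and pannexin genes, Gja1, the widespread connexin, read 12.72, 12.76, 12.80 and 12.84, with the epithelial Gjb2 (8.26 ± 0.14), Gjb5 (7.01 ± 0.18), Gjc1 (8.16) and Panx1 (7.95) also above the limit. Gja4 (5.59), Gjb1 (4.60), Gja3 (4.16), Gja5 (4.06), Gjd2 (3.98) and Gjb6 (2.54) were not. Apart from the hemidesmosome pair, 5 of 20 integrin subunits were above, namely Itgb1 (12.03), Itgb6 (10.53), Itgav (9.96), Itga3 (9.94) and Itgb5 (9.37).

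Receptors were the dimmest of the 5 classes. Of 235 measured, 57 (24.3%) were above the limit, the median was 4.40, and 3 were above 10.36, a level that 1422 of all genes passed. These were Tnfrsf12a, the receptor of the cytokine TWEAK, at 12.56, 12.54, 12.37 and 12.28, the thrombin receptor F2r at 11.16, 11.24, 11.15 and 11.06, and the orphan receptor Gprc5a at 10.57. Receptor tyrosine kinases were above the limit in 17 of 48 cases and none passed 10, the brightest being Axl (9.77), Epha2 (9.70), the collagen receptor Ddr1 (9.68) and Egfr (9.37 ± 0.13). Egfr, the receptor of the growth factor in the maintenance medium, had probe sets at 9.37, 8.67 and 4.19. Of its family of ligands, 5 of 9 were above the limit (55.6%, the share of all genes being 55.7%). Amphiregulin Areg was at 9.70, Tgfa at 9.45, Nrg1 at 7.90 and Hbegf at 7.62, whereas Egf itself was at 3.14.

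In each of the other receptor lists fewer members were above the limit than at or below it. Of all genes, 55.7% were above. TGF-beta and BMP receptors had 5 of 11 above, with Tgfbr1 (9.52), Acvr1 (8.91), Bmpr2 (8.73) and Bmpr1a (7.72) brightest. Notch and Wnt receptors had 7 of 17, led by Notch1 (10.31), which directs differentiation in squamous epithelium, Fzd6 (10.03), Fzd1 (8.81) and Fzd2 (7.73), with the stem cell marker Lgr5 at 2.54. Cytokine, TNF and Toll-like receptors had 17 of 54, where Tnfrsf12a was followed by Ltbr (10.23), the shared IL-6 family subunit Il6st (10.00) and Ifngr1 (9.38). Only 10 of 93 G protein-coupled receptors were above the limit, and after F2r and Gprc5a came the chemokine scavenger Ackr3 (10.06) and the nucleotide receptor P2ry2 (9.06). Of 12 genes of taste receptors and taste cells, Entpd2 (7.77) alone was above, and Plcb2 (5.64), Car4 (4.55) and Tas1r3 (3.70) came next.

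Transcription factors had 103 of 239 above the limit (43.1%, against 55.7% of all genes) and a median of 5.96. The lists within the class were far apart. Factors known from stratified epithelium had 19 of 22 above, with Klf4, a factor of barrier formation, at 11.35, 11.44, 11.31 and 11.30. The splicing regulator Esrp1, counted with them, followed at 11.07, then Runx1 at 10.73 and Klf5 at 10.64. Tp63 at 9.43 lay in the middle of the list, whose median was 8.81. Factors of oral and craniofacial patterning had 7 of 18 above, with Pitx1 (8.74 ± 0.14), which marks the oral ectoderm, Sox2 (8.53 ± 0.05), Irx5 (8.02) and Msx1 (7.33). Hox factors had 4 of 22, Hoxc4 (8.26), Hoxd8 (7.13), Hoxb3 (6.86) and Hoxd9 (6.83).

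General signal-regulated factors had 61 of 82 above the limit (74.4%, against 55.7% of all genes) and a median of 8.64. They held the brightest single members of the class. Elk3 (11.96), the stress-response factor Atf4 (11.95), the hypoxia factor Hif1a (11.44) and the antioxidant response factor Nfe2l2 (11.41) led them. Nuclear receptors had 9 of 42, with the glucocorticoid receptor Nr3c1 (9.47), Nr2f2 (8.82), Nr2c1 (8.61) and Esrra (8.41). Factors of epithelial-mesenchymal transition were low in 6 of 7 measured cases. Zeb1 was at 5.69, Twist1 at 5.12 and Zeb2 at 5.05, beneath Tcf4 at 7.48. Snai2 and Snai3 had no named probe set. Among 46 factors that specify other lineages, 2 were above the limit. Cdx2, an intestinal and trophoblast factor, read 9.23, 9.32, 9.08 and 9.23 from 1 probe set, and Wt1 was at 6.73 ± 0.12. Gata4 (6.25) and Pax8 (5.97) were the next.

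Metabolic genes had the highest median of the 5 classes, 8.52, with 182 of 279 above the limit (65.2%, against 55.7% of all genes). All 21 citric acid cycle genes measured were above it, between 8.88 and 12.29, led by Idh1 (12.29), Mdh1 (12.10), Mdh2 (11.72) and Sdhc (11.22). All 6 pentose phosphate genes were as well, led by Taldo1 (11.67), Tkt (10.97), Pgd (10.76) and Rpe (10.14). In glycolysis, Ldha (13.36), Gapdh (13.24 ± 0.04) and Aldoa (13.02) headed the 13 of 19 above the limit, which included the muscle and liver forms of phosphofructokinase, Pfkm (7.56) and Pfkl (6.66). The 6 below it were Eno3 (6.56), Aldoc (6.20), Hk2 (5.77), Eno2 (4.91), Pklr (4.41) and Pgam2 (3.91). Genes of gluconeogenesis and glycogen had 5 of 12 above, led by Ugp2 (10.67), Gbe1 (9.24), Pygb (8.94) and Gys1 (7.99), with the liver enzymes Pck1 at 3.49 and Gys2 at 2.86.

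The share above the limit, 55.7% over all genes, differed between the lists of synthesis, breakdown and transport. Fatty acid and cholesterol synthesis had 26 of 31 (83.9%), led by the desaturase Scd2 (12.43), Fasn (11.63) and Fdps (11.50). Polyamine and nucleotide synthesis had 20 of 21 (95.2%), led by Hprt1 (11.70), Aprt (11.64), Atic (11.45) and Odc1 (11.19). Fatty acid oxidation and ketone metabolism, 1 list, had 16 of 18 (88.9%), led by Hadhb (11.03), Acadl (10.54), Oxct1 (10.11) and Hadha (9.91). Amino acid and urea cycle enzymes had 24 of 39 (61.5%), near the share of all genes, with Got2 (11.37), Psat1 (11.06), Ahcy (10.63) and Oat (10.48) brightest. Carriers of glucose and amino acids had 14 of 37 (37.8%), with Slc38a2 (11.62), Slc3a2 (10.88), Slc7a1 (10.84) and the lactate carrier Slc16a1 (10.42) brightest.

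Detoxification was split between its lists. Antioxidant and conjugating enzymes had 35 of 46 above (76.1%, against 55.7% of all genes) and a median of 9.53. Txn1 (13.68), the glutathione transferase Gstp1 (13.22), Prdx2 (12.65) and Sod1 (12.31) led them. The cytochrome P450 list had 2 of 29 measured genes above and a median of 3.64. Those were Cyp3a9, a drug- and steroid-oxidizing enzyme best known from liver, at 12.28, 12.31, 12.35 and 12.31, rank 189, and Cyp26b1, which degrades retinoic acid, at 10.80, 10.89, 10.59 and 10.73. The next in the list, Cyp2d4 (6.25) and Cyp1b1 (6.24), were under the limit. Cyp3a9 has 1 named probe set, and the second of Cyp26b1 averaged 8.60, also above the limit. Cyp51, a P450 outside this list, averaged 10.85 at a probe set that can bind related transcripts and 8.62 at its other. It was named after its values were seen.

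**Figure D3:**
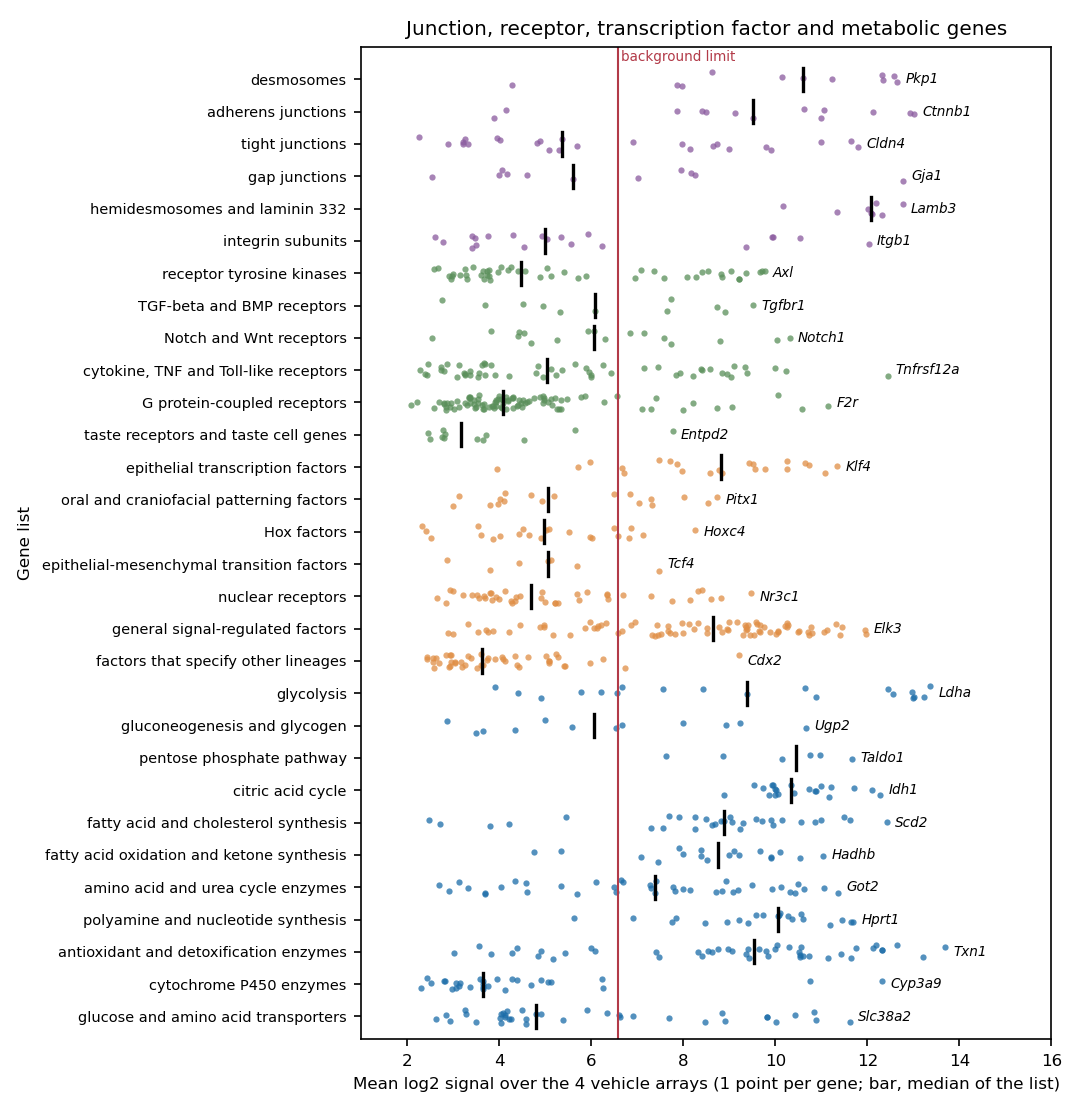
Mean log2 signal over the 4 vehicle arrays of every measured gene in the lists of junction (purple), receptor (green), transcription factor (orange) and metabolic genes (blue), with a bar at the median of each list, the background limit of 6.58 as a red line and the brightest member named. Hemidesmosome genes (median 12.09) and citric acid cycle genes (median 10.33) lie wholly above the limit, and most G protein-coupled receptors (median 4.08) and P450 enzymes (median 3.64) below it.

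Genes of proliferation were above the limit in 29 of 29 cases, with a median of 9.75. The clamp protein Pcna (12.22), the cyclin Ccnd1 (11.98), Cdk1 (11.32) and the helicase subunit Mcm7 (11.24) were brightest. Squamous differentiation genes were above it in 20 of 29 cases (69.0%, against 55.7% of all genes), in the same pools. Sprr1a, an envelope precursor, was at 12.94 ± 0.06, followed by Emp1 (12.67), Sfn (12.61) and Krtdap (12.46 ± 0.07), while the envelope precursor involucrin, Ivl, was at 3.60 and the mucosal gene Mal at 4.32. The cells as a population thus gave signals of both cycling and barrier genes, and arrays of pooled RNA do not show whether single cells held both.

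Secreted immune genes included some of the brightest single genes. Of 47 cytokines and chemokines, 18 were above the limit (38.3%, against 55.7% of all genes). At the head were Ccl2 (13.20, 13.19, 12.95 and 12.66), Cxcl1 (12.74, 12.85, 12.42 and 11.96), Il24 (12.05, 12.02, 11.49 and 11.40) and Cxcl3 (11.68). Each of the 3 with array values given was lower at 6 and 12 h than at 0 and 3 h. Of 16 antimicrobial genes, 5 were above (31.25%). They were Slpi (9.12), C3 (9.08), S100a9 (8.87), Defb4 (8.02, listed under the older symbol Defb3 too and counted once) and S100a8 (7.31). Of 29 secreted proteases and inhibitors, 18 were above (62.1%, near the share of all genes), led by Serpinb2 (12.27), Timp2 (11.98), Serpinb1a (11.94) and Mmp3 (11.67).

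Markers of other cells that a tongue culture could hold were mostly near background. Over 97 such genes the median was 3.94 and 13 were above the limit, which 55.7% of all genes passed. The median of the 81 distant-tissue genes was 3.77. The sets share members, Mbp, Snap25 and Gfap among them, so these medians are not independent of each other. For leukocytes, Ptprc (3.17), Cd3e (3.47) and Cd68 (5.18) were low, and Cd14, the co-receptor for bacterial lipopolysaccharide, was the single member above, at 10.11, 10.09, 10.06 and 9.99. For endothelium, Pecam1 (2.74) and Kdr (3.78) were low and Egfl7 (7.28 ± 0.06) alone of 12 was above. None of 6 melanocyte genes was above, Tyr (3.94), Tyrp1 (3.66), Dct (3.97) and Pmel (5.55) among them. For salivary acinar cells, Aqp5 (3.77) and Amy1 (2.38) were low and Cst6 was at 12.78 ± 0.03. Cst6, a protease inhibitor, is also known from squamous epithelium, so it does not mark acinar cells alone.

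The mesenchymal list was mixed. Fibronectin Fn1 (12.57, 12.41, 12.66 and 12.71) and the intermediate filament gene Vim (11.34, 11.40, 11.32 and 11.33) were bright, and Sparc (9.17), Col5a1 (8.83), Acta2 (8.30) and Tagln (7.84) were above the limit. The collagen I and III genes Col1a1 (4.14), Col1a2 (3.30) and Col3a1 (3.91) were not. Nor were the proteoglycans Dcn (3.19) and Lum (2.17) and the receptors Pdgfra (3.97) and Pdgfrb (5.04). Of the 20 members measured, 6 (30%) were above the limit, against 55.7% of all genes. In skeletal muscle, 2 of 20 were above the limit. Myh1, a fast fibre myosin, read 9.92, 9.80, 9.51 and 9.44, and all 5 of its probe sets, from 7.64 to 9.67, were above it. Acta1 was at 6.78 ± 0.07, and Myh2 (2.60), Myh4 (2.38), Ckm (3.91) and Des (5.56) were below. In nerve and glia, Mbp (9.60 ± 0.13) and the tubulin Tubb3 (7.14 ± 0.13, but 3.61 without its probe set that can bind related transcripts) were above, and Snap25 (5.01), Gfap (4.78), Syp (6.07) and Uchl1 (4.27) below.

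The distant-tissue list itself had 4 members above the limit, which its definition fixes. Nppb, a natriuretic peptide of heart muscle, was at 11.17 ± 0.29, rank 695 of all genes, with 11.39 and 11.44 at 0 and 3 h and 10.86 at 12 h. Mbp, the myelin protein, read 9.70, 9.73, 9.53 and 9.46, but its other 2 probe sets averaged 6.03 and 5.25, both under the limit. Pde6g (6.83 ± 0.05) and Serpina1 (6.71 ± 0.10) were just above. Without Nppb and Mbp in the list the limit would be 5.79, with 8827 genes above it.

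**Figure D4:**
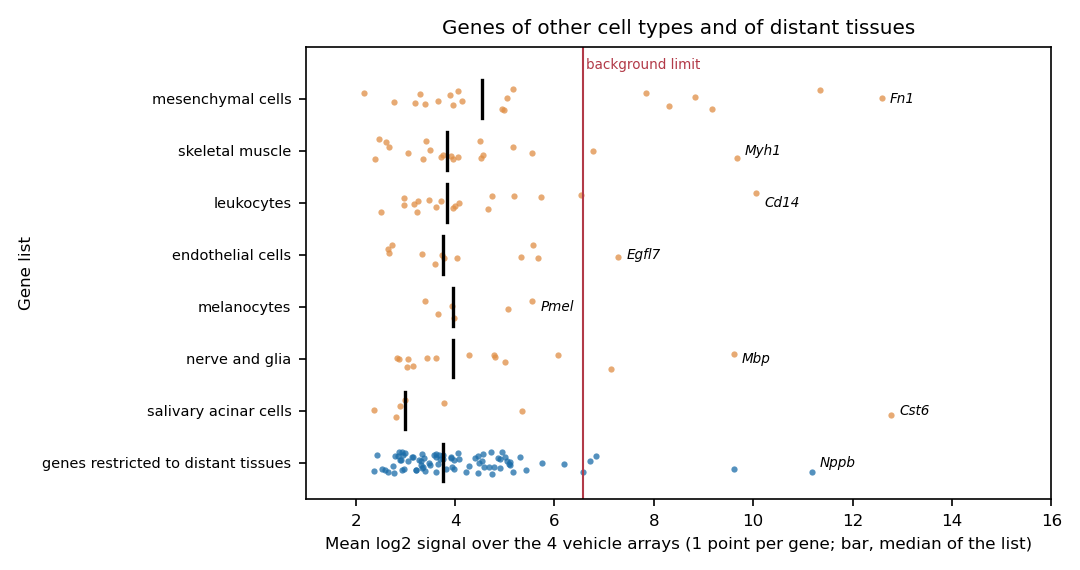
Mean log2 signal over the 4 vehicle arrays of every measured gene in 7 lists of other cell types (orange) and of the distant-tissue list (blue), with list medians as bars, the background limit as a red line and the brightest member named. All medians lie between 3.00 and 4.55, and single bright genes such as Fn1 (12.59), Cd14 (10.06), Cst6 (12.78) and Nppb (11.17) lie far to the right of their lists.

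Among genes above the limit, 31 had an SD over 0.3 across the 4 arrays and 3 spanned more than 1 log2 unit. The neutrophil chemokine Cxcl2 (9.19, 9.45, 8.25 and 7.73; SD 0.80), the growth factor Csf2 (8.32, 8.47, 7.54 and 7.05; SD 0.67) and the cytokine Il1a (11.33, 11.46, 10.63 and 10.33; SD 0.55) spread the most. All were lower on the 6 and 12 h arrays than on the 0 and 3 h arrays. Krt15 (6.97, 7.05, 7.31 and 7.94; SD 0.44) and Krt13 (9.05, 9.04, 9.54 and 9.96; SD 0.44) came next, both highest at 12 h. With 1 array per time, a change over time and the spread between arrays cannot be told apart.

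**Figure D5:**
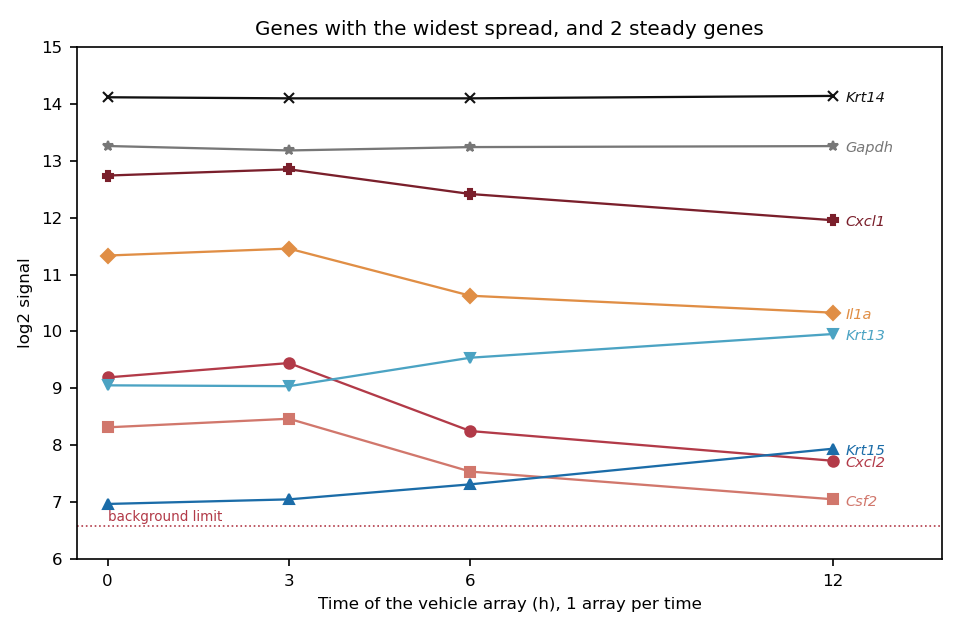
log2 signal on the vehicle array of each time, 0, 3, 6 and 12 h, for the 5 genes above the limit with the largest SD, for Cxcl1, and for Krt14 and Gapdh as steady genes. Cxcl2, Csf2, Il1a and Cxcl1 are lower at 6 and 12 h, Krt15 and Krt13 are highest at 12 h, and Krt14 and Gapdh span 0.04 and 0.08 units.

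The choice of probe set mattered more than the array. In 73.9% of the 4526 genes with several probe sets, the brightest and the dimmest differed by over 1 log2 unit, and of the 3061 of these genes that were above the limit, 1967 had another probe set at or below it. Of the genes named here, Bmpr2, Csf2, Hadha, Irx5, Nectin3, Nr2c1, Nr2f2, Nrg1, Panx1, Pfkm, Sox2, Tgfbr1, Tubb3 and Wt1 were above the limit at the brightest probe set and not when their probe sets were averaged. A gene reported above the limit is therefore above it at 1 probe set at least, and a gene reported low was low at all its named probe sets.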

How the data were processed

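Labelled cRNA, made from total RNA by amplification from the 3′ end, was hybridized to Affymetrix rat genome expression arrays, 1 array per pool. The authors deposited log2 signals per probe set, processed with GeneSpring GX; how probes were summarized and arrays normalized is not given in the sources used here. These values were used unchanged, from the 4 vehicle columns. The 3 value columns of NaF-treated cells were not used.

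Probe sets with 1 gene symbol in the platform annotation were renamed through their gene ID to current RefSeq symbols (assembly GRCr8), which matched for 20764. Probe sets with several symbols (436) or none (9831) gave no gene level. The gene level was the highest mean among a gene's probe sets. The members and the 51 gene lists were chosen with earlier results of these data known. Listed genes without a named probe set in the table used here, 284 in all, were not analysed here. Genes named in the text were the 4 markers, the 25 brightest, up to 4 of the brightest in each list, all measured keratin, desmosome, adherens, gap junction and hemidesmosome genes, the 5 with the largest SD above the limit, the 3 nearest the limit on either side, Gapdh and the defining markers of other cells. Other genes below the limit or lower in a list (Dsg1, Lgr5, Egf, Ivl, Mal, Pfkm, Pfkl and the glycolysis genes below the limit, Pck1, Gys2, S100a8 and further markers of other cells) were added after their values were seen.

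No groups were compared and no test was run: with 1 array per time, values are given per array or as mean ± SD (n = 4 arrays). Arrays give no read depth, and their number limits the precision. Alternatives were leaving out each array, averaging a gene's probe sets, leaving out probe sets that can bind several transcripts, quantile normalization, equal array medians, the median over arrays and other background limits; 2 limits (the bioB control, and the list without Nppb and Mbp) were added after seeing the data. Calculations were made in Python 3.11.15 with numpy 2.4.6 and pandas 2.3.3, and tested on simulated data with known levels.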

Additional observations from a re-analysis of the deposited data

Results flagged for a closer look

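For 28 of the 288 genes examined (9.72%), 1 of the 4 arrays stood apart from the others by more than Dixon's 95% critical value. Chance alone exceeds that value in about 1 of 20 groups. The deposited values repeat between arrays for many genes. Whether such repeats bear on the flags was not tested. The 12 h array stood apart for 11 genes, above the others for Hadha (10.00), Ivl (3.67), Krt12 (7.91), Krt71 (5.91) and Myh2 (2.73), and below them for Ckm (3.81), Elk3 (11.88), Mmp3 (11.58), Odc1 (11.03), Perp (12.28) and Tmsb4x (13.72). The 0 h array did so for 8, above the others for Dcn (3.22), Krt18 (3.19), Mdh2 (11.75) and Tas1r3 (4.01), and below them for Cyp1b1 (5.93), Krt7 (6.88), Pgk1 (12.92) and Pkp2 (8.53). The 3 h array did so for 7, above the others for Aldoc (6.31), Axl (9.82), Gata4 (6.41) and Runx1 (10.81), and below them for Cyp2d4 (6.11), Pmel (5.26) and Taldo1 (11.63). The 6 h array did so for Rpl7a (13.58), which was below the others, and for Hk2 (5.83), which was above them. The whole range over the 4 arrays was above 0.3 log2 units for 4 of these genes, Cyp1b1 (0.44), Pmel (0.43), Tas1r3 (0.42) and Krt7 (0.39), and Krt7 was the only one of them above the background limit. No class median and no beta-actin difference was flagged.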

How the results depend on the processing

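The count of genes above the limit was 7860 to 8008 when each array was left out in turn, and the class counts were 9 for keratins, 50 for junctions, 57 to 58 for receptors, 101 to 104 for transcription factors and 180 to 185 for metabolism. The class medians then ran from 5.65 to 5.74 for keratins, 7.97 to 7.99 for junctions, 4.38 to 4.42 for receptors, 5.91 to 5.95 for transcription factors and 8.51 to 8.55 for metabolism. The placing of the limit moved the counts most. At the 99th percentile of the distant-tissue genes, 9.92, the counts were 1969 genes, 3 keratins, 29 junction, 8 receptor, 26 transcription factor and 88 metabolic genes. At the 75th percentile, 4.75, there were 15 keratins and 103 receptors above, and at the bioB control, 7.90, 5 keratins. Averaging a gene's probe sets lowered the medians to 6.77 for junctions, 4.05 for receptors, 5.19 for transcription factors and 7.68 for metabolism, and took 14 of the reported genes to the other side of the limit: Bmpr2, Csf2, Hadha, Irx5, Nectin3, Nr2c1, Nr2f2, Nrg1, Panx1, Pfkm, Sox2, Tgfbr1, Tubb3 and Wt1. Leaving out probe sets that can bind several transcripts gave a transcription factor median of 5.86, a Krt6c level of 11.75 and a Tubb3 level of 3.61, under the limit. The median over arrays gave a keratin median of 5.65. Quantile normalization moved no class count by over 1.5 times. Setting the array medians equal cannot change a mean over the same arrays, so it could not move a level or a count. A limit from olfactory receptor genes was not run, since 18 were named and 20 had been set as the minimum. No paired analysis was possible because no groups were compared. Without read depth, the low hump is bounded by array background, and a low signal does not show that a transcript is absent.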

Other observations

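Probe sets with no gene symbol were left out of the ranking. Controls aside there were 9780 of them, and 1732 (17.7%) were above the background limit, against 47.6% of the probe sets with 1 symbol and 60.8% of those with several. The signals of 27 of the unnamed probe sets were above 12, the highest at 13.88, so the list of the brightest genes covers named probe sets only.

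Genes with TATAAA in the 50 bases before the start were 17.8% of the 45 promoters found for the 100 brightest genes once ribosomal proteins were left out. Median gene span in the annotation was 5163 bases for the 100 brightest genes, 23133 for all genes above the limit and 21002 for those at or below it, with no test made.

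The endoplasmic reticulum chaperone Hspa5 was at 12.02 and the stress factor Ddit3 at 9.10 on the vehicle arrays, ranks 279 and 3370 of 14218 named genes. Both were named after their values were seen.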
